A study of Mus musculus with 13 samples.

Results

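Promoter sites that lie away from CpG islands were examined in mouse liver by targeted bisulfite sequencing, in which the share of unconverted reads at a cytosine gives its methylation. The members are the sites that carry the authors' promoter flag, no island flag and no island shore flag, on the autosomes. There were 1308 of them among the 23904 listed sites (5.47%), and they made up 31.8% of the 4117 autosomal promoter sites. They lay at 953 promoters, a promoter being a run of sites of one gene within 1000 bp of the next, and carried 796 gene symbols, while 162 sites had no symbol. The livers came from 13 mice, 7 fed a low fat/low sucrose (LFLS) diet and 6 fed a high fat/high sucrose (HFHS) diet, and the comparison asks where methylation differs between the diets. The labels used here give no strain, sex, age or time on diet. Titles begin with G1 or G2, a prefix the labels leave unexplained, in 4 and 3 LFLS and 3 and 3 HFHS mice, and its part in the results was not tested.

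The table used is the authors' own comparison, with one average per diet at each site, so no value per mouse, read depth or spread can be given. Each listed site had already passed the authors' limits, with q at most 0.01 and a difference of at least 5 percentage points. A rise or a fall below therefore means a listed difference, taken as HFHS less LFLS, that passed those limits, and no further test was run over sites. The listed difference is not exactly the difference of the averages, with a median gap of 0.921 points and a largest gap of 6.45 points among the 1308 sites.

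Most mammalian promoters are rich in CpG dinucleotides and stay unmethylated in nearly all tissues. Promoters outside islands hold fewer CpGs and often belong to genes used in a particular tissue, such as those for plasma proteins in hepatocytes or surface receptors in blood cells. Their CpGs tend to be methylated where the gene is silent and less methylated where it is active. Liver is mostly hepatocytes by mass, mixed with endothelial, bile duct, stellate and immune cells, so a bulk methylation level averages over all of them.

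The promoters below show what such sequences look like and where the measured CpGs sit. Those of Nradd, Gmfg and Dnahc6 (now Dnah6) were taken as promoters of the largest changes or of the most sites. The other 8 were taken after their values were seen, as the largest rises and falls with a measured CpG before the start in the RefSeq promoter table. Each line gives the 250 bases before the RefSeq start, 5′ to 3′ on the gene's strand, in build GRCm38.p6, with every CpG in capitals.
Nradd, chr9:110624394-110624643, minus strand: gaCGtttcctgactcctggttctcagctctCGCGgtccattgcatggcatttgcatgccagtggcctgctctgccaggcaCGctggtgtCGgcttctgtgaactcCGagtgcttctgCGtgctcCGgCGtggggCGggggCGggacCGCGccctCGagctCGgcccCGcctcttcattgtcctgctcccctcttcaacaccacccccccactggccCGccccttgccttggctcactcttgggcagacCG
Dnahc6, chr6:73221632-73221881, minus strand: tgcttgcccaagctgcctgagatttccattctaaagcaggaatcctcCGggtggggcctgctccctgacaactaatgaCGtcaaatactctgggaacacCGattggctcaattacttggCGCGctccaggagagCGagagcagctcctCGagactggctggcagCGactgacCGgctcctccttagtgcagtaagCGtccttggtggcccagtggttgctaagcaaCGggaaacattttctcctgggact
Gm1082, chr7:30514872-30515121, plus strand: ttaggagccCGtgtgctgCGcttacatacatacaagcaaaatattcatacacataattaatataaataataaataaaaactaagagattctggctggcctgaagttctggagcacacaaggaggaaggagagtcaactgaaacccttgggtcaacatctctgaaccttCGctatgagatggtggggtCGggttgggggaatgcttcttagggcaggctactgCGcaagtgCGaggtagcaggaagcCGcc
Tagap, chr17:7925750-7925999, plus strand: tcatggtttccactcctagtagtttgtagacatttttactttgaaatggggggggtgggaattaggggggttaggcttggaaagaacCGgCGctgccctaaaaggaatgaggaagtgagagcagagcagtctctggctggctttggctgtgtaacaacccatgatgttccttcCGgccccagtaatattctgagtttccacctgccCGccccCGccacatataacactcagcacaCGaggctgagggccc
Tgm3, chr2:130012090-130012339, plus strand: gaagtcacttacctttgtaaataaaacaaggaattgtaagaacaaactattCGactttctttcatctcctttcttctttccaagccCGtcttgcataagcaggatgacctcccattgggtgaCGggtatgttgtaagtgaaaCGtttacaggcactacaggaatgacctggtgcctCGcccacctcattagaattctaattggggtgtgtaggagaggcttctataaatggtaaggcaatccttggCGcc
Prss41, chr17:23844157-23844406, minus strand: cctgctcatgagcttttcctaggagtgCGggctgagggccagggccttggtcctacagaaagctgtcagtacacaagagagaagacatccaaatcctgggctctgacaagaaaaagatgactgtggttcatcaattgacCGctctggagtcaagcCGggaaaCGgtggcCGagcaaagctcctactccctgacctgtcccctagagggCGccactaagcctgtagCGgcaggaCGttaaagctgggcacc
Gmfg, chr7:28440687-28440936, plus strand: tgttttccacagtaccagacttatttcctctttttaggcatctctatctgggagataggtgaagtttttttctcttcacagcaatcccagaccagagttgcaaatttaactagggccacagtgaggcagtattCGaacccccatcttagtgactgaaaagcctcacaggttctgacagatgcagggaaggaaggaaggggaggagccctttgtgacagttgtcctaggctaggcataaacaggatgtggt
Nfic, chr10:81427174-81427423, minus strand: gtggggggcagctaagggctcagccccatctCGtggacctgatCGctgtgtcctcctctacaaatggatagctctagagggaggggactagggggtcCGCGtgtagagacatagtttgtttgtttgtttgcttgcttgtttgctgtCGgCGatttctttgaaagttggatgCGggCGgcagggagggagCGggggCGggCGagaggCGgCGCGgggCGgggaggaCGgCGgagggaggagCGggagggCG
Cyth4, chr15:78596797-78597046, plus strand: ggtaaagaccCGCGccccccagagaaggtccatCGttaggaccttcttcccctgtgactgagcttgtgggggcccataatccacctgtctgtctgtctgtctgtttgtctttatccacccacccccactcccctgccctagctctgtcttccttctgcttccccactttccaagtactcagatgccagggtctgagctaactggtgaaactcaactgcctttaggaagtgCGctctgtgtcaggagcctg
Stox2, chr8:47352349-47352598, minus strand: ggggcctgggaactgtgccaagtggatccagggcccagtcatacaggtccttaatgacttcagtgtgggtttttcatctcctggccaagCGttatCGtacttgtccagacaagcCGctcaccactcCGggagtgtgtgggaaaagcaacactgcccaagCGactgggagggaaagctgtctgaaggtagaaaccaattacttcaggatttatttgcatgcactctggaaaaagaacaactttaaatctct
Inpp5d, chr1:87620062-87620311, plus strand: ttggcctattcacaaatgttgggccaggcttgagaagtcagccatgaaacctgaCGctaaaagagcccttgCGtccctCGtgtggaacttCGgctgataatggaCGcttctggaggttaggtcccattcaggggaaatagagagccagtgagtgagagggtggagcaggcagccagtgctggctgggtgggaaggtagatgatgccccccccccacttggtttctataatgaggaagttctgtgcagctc

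These 11 stretches held 1 to 19 CpGs, the fewest in Gmfg and the most in Nfic. The ratio of observed to expected CpGs ranged from 0.0749 at Gmfg to 0.910 at Nfic and was under 0.5 in 7 of the 11, against a median of 0.373 over the 32851 RefSeq windows. The name CpG-poor therefore does not hold for each of them, and the sites are called here by the authors' flags, as promoter sites outside islands and shores. A comparison of CpG content over all their genes is not reported, because the promoter table held 606 of the 799 genes (75.8%).

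The listed distances could be checked on these sequences. Of 146 member sites placed well inside a window of their gene, 77 (52.7%) had a CpG at exactly the listed distance from the RefSeq start, whereas positions 3 to 20 bases away held one in 4.83% of cases. The listed distances are slightly offset between the upstream and downstream sides of a start. The check made no allowance for this, so some downstream sites may have been missed. Other remaining sites may belong to a start that RefSeq does not use.

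The CpGs that rose can be read off these lines, counting bases from the left end. In Gm1082, a gene that RefSeq lists as Arhgap33os, the measured CpGs begin at bases 188, 231 and 247, and in the authors' deposited table they averaged 26.5%, 30.5% and 36.7% in LFLS and 49.1%, 53.0% and 60.6% in HFHS. The CpG of Tagap, a GTPase-activating protein gene of activated T cells, begins at base 91 and averaged 50.7% and 71.3% in the authors' deposited table. At Tgm3, which encodes a transglutaminase of skin and hair, base 143 averaged 29.2% and 46.7% in that deposited table of the authors. The Prss41 CpG, in the promoter of a serine protease gene, begins at base 170 and went from 17.8% to 40.9% in the authors' deposited table. Each rise started from a partly methylated state.

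Most of the CpGs that fell began at a higher level. The single CpG before the start of Gmfg, an actin regulator of white blood cells, begins at base 134 and averaged 66.5% in LFLS and 42.7% in HFHS, by the authors' deposited table. At Cyth4, an exchange factor for ARF GTPases found mainly in blood cells, the CpG at base 231 averaged 82.7% and 61.5% in the authors' deposited table. Inpp5d encodes SHIP1, a lipid phosphatase of blood cells, and its CpG at base 55 averaged 78.5% and 60.2% in the authors' deposited table. Stox2, a winged-helix gene, had measured CpGs at bases 115 and 127, with 79.3% and 76.7% in LFLS and 65.2% and 56.8% in HFHS, by the authors' deposited table. The Nfic promoter, of a nuclear factor I gene, had a lower start, and its CpG at base 44 averaged 49.0% and 19.7% in the authors' deposited table.

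Short motifs were looked for in these 250 bases on both strands, by exact letters, without asking whether they overlap. TATAAA occurred in 2 of the 11, Gm1082 and Tgm3, against 12.4% of the 32851 windows cut at the same length. The GC box letters GGGCGG occurred in 3, Nradd, Tagap and Nfic, against 32.7%, and CCAAT in 3, Dnahc6, Tgm3 and Stox2, against 33.8%. GAGGAAGT, a core bound by the blood cell factor PU.1, occurred in 2, Tagap and Inpp5d, against 2.44%. CACGTG occurred in 0 of the 11, against 6.02%. A match is a description of letters and not evidence of binding.

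Methylation at these promoter sites differed in both directions, with more rises than falls. By the authors' deposited table, rises in HFHS were listed at 789 of the 1308 sites (60.3%), beside 57.6% of all listed sites, and falls at 519 (39.7%), beside 42.4% of all listed sites. Shore promoter sites had 67.9% rises over 1952 sites and island promoter sites 66.7% over 857, while sites with none of these flags had 54.0% over 15816. No test of these shares against each other was run.

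Rises and falls were of similar size. The median rise was 11.5 points and the median fall -11.9 points in the authors' deposited table, and the extremes were 39.7 and -27.6 points. A difference of 10 points or more was listed at 858 sites (65.6%), near the 65.0% of all listed sites, and q was under 0.001 at 326 (24.9%), near the 23.5% of all listed sites. Among island promoter sites, 27.7% differed by 10 points or more, and among shore promoter sites 53.8% did, in the authors' deposited table.

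Levels were intermediate at most of these sites. The median average in LFLS was 35.1% (quartiles 15.0% and 74.2%), against 19.8% at shore promoters and 5.12% at island promoters in the authors' deposited table. Of the member sites, 26.6% had a mean of the 2 averages under 20%, 59.2% lay from 20% to 80% and 14.2% lay above 80%. The share from 20% to 80% was close to the 58.0% of all listed sites and the 62.2% of sites with none of these flags, while 84.2% of the island promoter sites had a mean under 20%.

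Sites that rose and sites that fell came from different levels. Sites that were higher had a median of 21.4% in LFLS and 34.3% in HFHS, and sites that were lower had 74.8% and 59.5%, in the authors' deposited table. The middle 50% of LFLS averages ran from 9.35% to 41.4% for rises and from 49.5% to 84.1% for falls, and these ranges did not overlap. Part of this is arithmetic, since a site near 0 can hardly fall by 5 points, and 134 of the 137 sites under 5% were rises while 32 of the 32 sites above 95% were falls. Splitting sites by the sign of HFHS less LFLS also draws rises toward low and falls toward high LFLS averages. Other listed sites followed a like course by level, as given next.

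**Figure D1:**
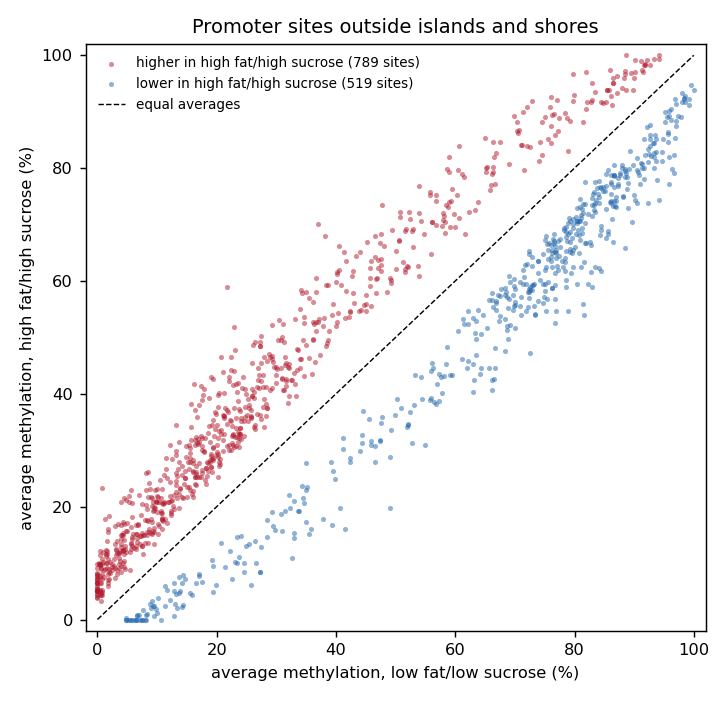
Each point is 1 of the 1308 promoter sites outside islands and shores, with its average methylation in LFLS mice on the x axis and in HFHS mice on the y axis, both in percent. The 789 red sites above the line of equal averages are densest at low levels and the 519 blue sites below it are densest at 60 to 90%, and the empty band along the line is the authors' limit on the difference.

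The share of rises was highest at mean levels of 20 to 40% and lowest at 70 to 80%. In the class from 20 to 30% mean methylation 151 of 180 sites (83.9%) were higher, and in that from 30 to 40% 112 of 132 (84.8%) were. At 60 to 70% the share was 31.4% (44 of 140), and at 70 to 80% it was 22.1% (32 of 145). All other listed autosomal sites had 87.6%, 82.1%, 35.7% and 30.5% in those classes. Toward both ends the share turned back, to 74.7% (133 of 178) under 10%, 30% (39 of 130) at 80 to 90% and 50% (28 of 56) above 90%. Weighted by the levels of the promoter sites, the shares of the other sites gave 60.4% rises, beside the 60.3% observed.

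**Figure D2:**
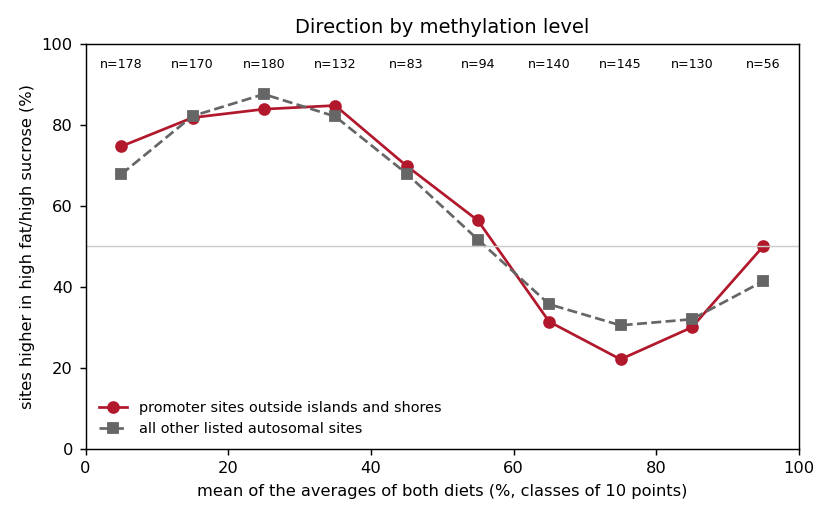
The y axis is the percent of sites higher in HFHS and the x axis the mean of the averages of both diets, in classes of 10 points, with the number of promoter sites above each class. Red circles (promoter sites outside islands and shores) and grey squares (all other listed autosomal sites) follow the same course, from over 80% higher at 20 to 40% methylation to 22.1% and 30.5% at 70 to 80%, and both turn up again above 90%.

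Position relative to the transcription start went with both level and direction. In the 250 bp before the start the median average was 29.6% in LFLS and 36.1% in HFHS, by the authors' deposited table. More than 750 bp upstream the medians were 66.2% and 59.5%, and there 35 of 82 sites (42.7%) were higher, against 52.1% for other sites of the same levels. At 750 bp or more downstream the medians were 29.4% and 42.5%, and 81 of 115 sites (70.4%) were higher, against 62.6% for other sites of the same levels. In the 6 classes between, the share higher ran from 58.1% to 64.5%. These classes were cut after the data were seen.

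**Figure D3:**
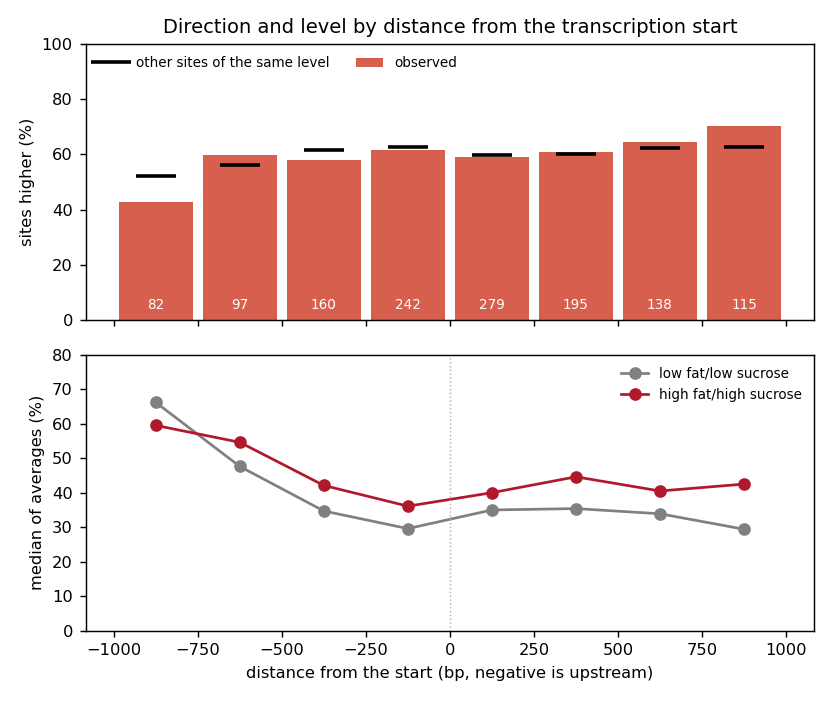
Bars give the percent of promoter sites higher in HFHS in classes of 250 bp from the transcription start, with the number of sites inside each bar, and black marks give the percent for other listed sites of the same level. Lines in the lower panel give the median average of each diet in percent. The far upstream class is the one with fewer rises than falls, and the only one with a lower median in HFHS (59.5% against 66.2%).

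By gene feature, sites with an intron flag alone were the most numerous, 581 (44.4%), and 58.9% of them were higher. Sites with neither an exon nor an intron flag numbered 356 (62.4% higher), those with an exon flag alone 267 (61.8%) and those with both flags 104 (57.7%). By chromosome the share ran from 46.9% on chromosome 11 (53 of 113) to 73.5% on chromosome 19 (50 of 68), where all listed sites had 55.6% and 61.0%.

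The largest rise was in the promoter of Mst1r, which encodes RON, the receptor for macrophage-stimulating protein. Its 6 sites lay 294 to 347 bp downstream of the start, in an exon, within 54 bp on chromosome 9. In order along the gene they averaged 36.7%, 40.5%, 41.4%, 38.1%, 21.8% and 45.2% in LFLS and 58.0%, 66.2%, 65.1%, 67.9%, 59.0% and 66.9% in HFHS, by the authors' deposited table. The lowest HFHS average lay above the highest LFLS average, which says nothing of the spread between mice. The listed rise was between 20.7 and 39.7 points across the 6 sites in the authors' deposited table, with the largest at the site that started lowest.

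The other large rises were at genes of varied roles. In the authors' deposited table Arhgap27, a GTPase-activating protein gene, rose by 33.7 points (37.0% to 70.1%) at an exonic site 475 bp upstream on chromosome 11 at 103201509. Nradd, a death-domain relative of the neurotrophin receptors, rose by 29.4 points (47.8% to 73.4%) in an intron 177 bp downstream, per the authors' deposited table. The authors' deposited table lists rises of 27.4 points at Fam101a (now Rflna, an actin-binding refilin), 26.5 at the neuronal zinc finger gene Myt1l, 26.4 at the cytokine receptor gene Il20ra and 25.9 at the polycomb gene Phc2. Gm1082, printed above, Scara5 (24.4), a ferritin receptor gene, and 4930511M06Rik (24.8) completed the top 10 genes by rise, as the authors' deposited table has them. In these 10 genes each leading site started between 15.7% and 47.8%.

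The largest falls included Hmha1, BC017643 and Gmfg, genes used by blood cells, beside Csk and Nfic. Other blood cell genes rose, such as Tagap, printed above, and Prf1, described below. In the authors' deposited table Csk, the kinase that holds back Src family kinases, fell by 27.3 points (84.1% to 62.3%) 957 bp upstream on chromosome 9 at 57502394. Hmha1 (now Arhgap45), which encodes a minor histocompatibility antigen of blood cells, had 2 sites lower, the larger going from 81.6% to 54.0% in the authors' deposited table. BC017643 (now Cybc1), needed for the oxidase of phagocytes, went from 72.6% to 47.3%, with 2 of 2 sites lower in the authors' deposited table. Gmfg and Nfic, printed above, had listed falls of -25.9 and -25.5 points in the authors' deposited table.

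The rest of the 10 genes with the largest falls, counted among sites with a symbol, had varied roles. In the authors' deposited table Nos3, the endothelial nitric oxide synthase gene, went from 66.1% to 40.6%, and Klf15, a transcription factor of gluconeogenesis and amino acid breakdown, from 39.4% to 16.7%. Fgfbp1, a carrier of fibroblast growth factors, went from 75.2% to 54.6%, Pafah2, an acetylhydrolase gene, from 66.7% to 44.6% and 1700029H14Rik from 54.9% to 30.9% in the authors' deposited table. Sites with no symbol also fell within this range, by the authors' deposited table, at uc012enf.1 on chromosome 6 (-27.6 points, 83.0% to 59.0%, the largest fall of all) and at uc007kkw.1 on chromosome 11 (-23.6 points, 76.9% to 54.6%).

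Sites of one promoter mostly moved together. Of 216 promoters with 2 or more sites, 117 were higher at every site, 64 lower at every site and 35 mixed, so 83.8% went 1 way. Adjacent sites no more than 100 bp apart formed 210 pairs, of which 204 (97.1%) went the same way. Such sites are often read on the same DNA molecules and are not independent, and 737 of the 953 promoters had 1 site.

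The transcript with the most sites was uc008hps.1, which has no symbol. Its 11 sites on chromosome 19 at 44469825 to 44471466 were all higher, with averages of 23.1% to 82.9% in LFLS and 32.4% to 92.0% in HFHS, by the authors' deposited table. The listed rises there ran from 8.09 to 22.8 points in the authors' deposited table. By the distances the authors list for Scd1, the stearoyl-CoA desaturase gene, these sites lie 10732 to 12373 bp downstream of the Scd1 start and on the opposite strand's transcript. The Scd1 promoter itself had 2 member sites, 838 and 833 bp upstream, which averaged 15.7% and 0.680% in LFLS and 34.2% and 9.13% in HFHS, by the authors' deposited table. Both stretches rose, although one is at a promoter only by the start of that other transcript.

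Among named genes Dnahc6, an axonemal dynein heavy chain gene, had the most sites. Its 9 sites lay 366 to 689 bp upstream of the start, beyond the stretch printed above, and were all higher. Their averages ran from 21% to 33.2% in LFLS and from 38.1% to 53.3% in HFHS, by the authors' deposited table, 2 ranges that did not overlap. These are ranges over neighbouring sites and say nothing of the spread between mice. The rises were 9.90 to 21.8 points in the authors' deposited table.

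Promoters of the liver-linked genes Gpld1 and A1cf rose as blocks from low levels. Gpld1, which encodes a phospholipase that hepatocytes secrete and that cleaves GPI anchors, had 7 of 7 sites higher between 76 and 435 bp downstream, with mean averages of 13.7% and 22.3% in the authors' deposited table. A1cf, the RNA-binding partner of the enzyme that edits Apob mRNA, had 5 of 5 sites higher, with mean averages of 24.6% and 35.2% in the authors' deposited table. AI429214 also had 7 of 7 sites higher, from a mean of 6.91% to 14.6% in the authors' deposited table. At these 3 genes the rise was smaller than at Mst1r and began lower.

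Runx1 and Slc16a5 fell as blocks from high levels. Runx1 encodes a transcription factor of blood cell formation, and its 6 sites 387 to 524 bp downstream of the start averaged 72.8% to 91.4% in LFLS and 59.2% to 80.7% in HFHS, by the authors' deposited table. Those ranges overlap, yet each site was lower, with listed differences of -14.8 to -9.31 points in the authors' deposited table. Slc16a5, a monocarboxylate transporter gene, had 5 of 5 sites lower, with mean averages of 67.0% and 52.3% in the authors' deposited table.

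Some genes had promoters or parts of promoters that went opposite ways. Atxn7l1 had 5 sites at one start that were all lower (mean averages 76.7% and 66.0%) in the authors' deposited table. Its 3 sites around another start were all higher, from 15.3%, 16.0% and 89.4% to 23.4%, 22.8% and 96.8% in the authors' deposited table. Zmynd8, a chromatin reader gene, had 4 of 6 sites higher, and its sites ranged from -17.1 to 20.7 points in the authors' deposited table. The widest gap was at Arhgap27, where 3 sites at one start were higher and a site at another start was lower (-11.3 points, 86.7% to 78.6%) in the authors' deposited table. Fgfr2, a fibroblast growth factor receptor gene, had sites 152 and 284 bp upstream of the same start with listed differences of 16.4 and -21.5 points in the authors' deposited table. Gmfg (16.3 and -25.9 points) and Phc2 (25.9 and -12.4 points) were also split, each between 2 starts, in the authors' deposited table.

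**Figure D4:**
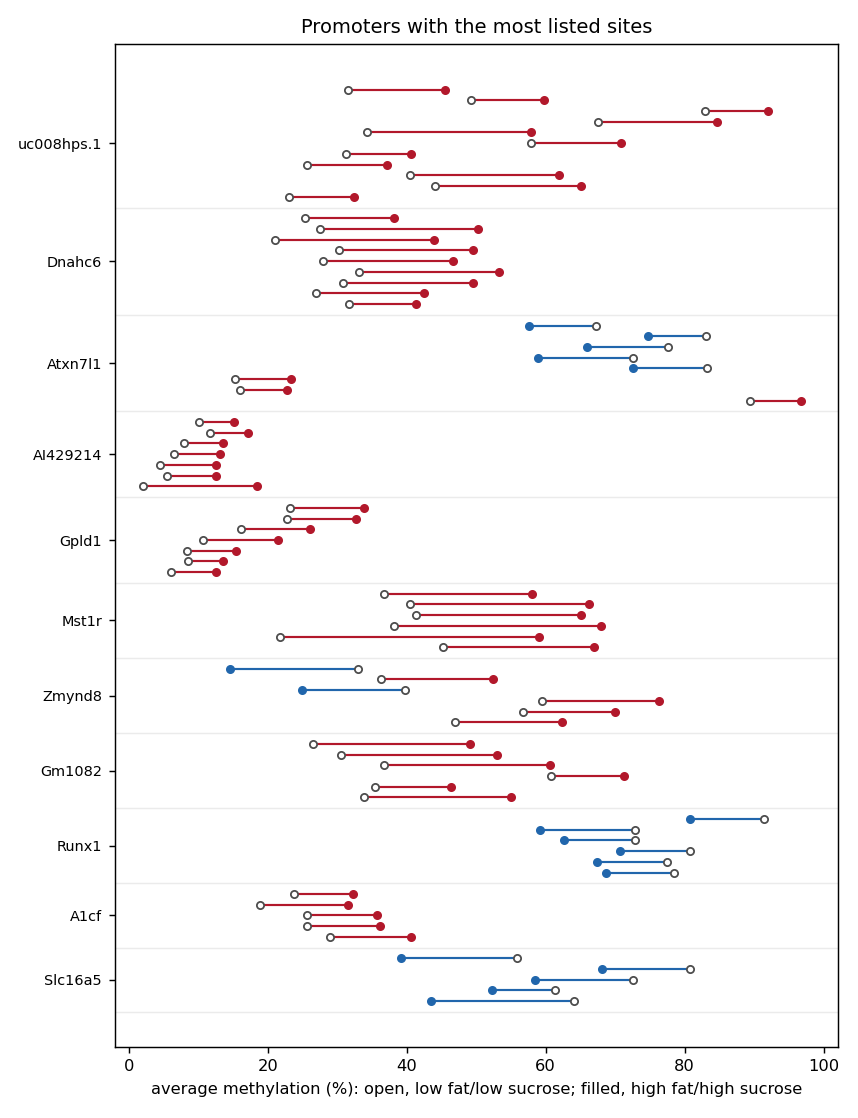
Each line is 1 site, with the average methylation in percent on the x axis, open for LFLS and filled for HFHS, red where higher and blue where lower. The 10 genes with the most sites and the transcript uc008hps.1 are shown, sites in order of position. The 9 sites of Dnahc6 and 6 of Mst1r go right, the 6 sites of Runx1 and 5 of Slc16a5 go left, and Atxn7l1 and Zmynd8 hold both.

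Promoters with 3 or more sites that were lower at every site numbered 28, against 41 higher at every site and 8 mixed. Among the 28, picked after their values were seen, were several genes known from white blood cells. Mir142, a microRNA gene of blood cells, had mean averages of 85.5% and 72.0% over 4 sites in the authors' deposited table. Wipf1, an actin regulator of lymphocytes, had 62.5% and 51.1% over 5 sites, and the guanine exchange factor genes Dock2 (79.2% and 66.4%) and Dock8 (90.2% and 80.5%) had 4 sites each in the authors' deposited table. The surface protein genes Cd37 (76.2% and 64.4%), Slamf6 (64.5% and 52.4%) and Cd38 (31.1% and 17.2%) and the phosphatase gene Ptpn22 (72.9% and 63.2%) had 3 sites each in the authors' deposited table. Apart from Cd38, each of these began above 60%. Genes of other kinds were also among the 28, such as Tek and Spp1, described below, and the monocarboxylate transporter gene above.

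Among the 41 that rose at every site were genes of liver and epithelial function, picked in the same way. Bhmt, which remethylates homocysteine in hepatocytes, had 4 of 4 sites higher (21.8% to 31.7%) and Prhoxnb (now Urad), an enzyme of urate breakdown, 5 of 5 (18.6% to 31.5%) in the authors' deposited table. Habp2, a protease that liver releases into plasma, had 3 of 3 (22.6% to 44.2%) and the tight junction gene Tjp3 4 of 4 (21.7% to 31.2%) in the authors' deposited table. Aqp8, a water channel gene, went from 21.8% to 36.1% over 4 sites, and Slc51a, a bile acid exporter subunit gene, from 53.5% to 71.2% over 3 sites in the authors' deposited table. Genes of other kinds were also among the 41, such as Dnahc6 and Mst1r, described above, and Rec8, described below. Ido2, of the amino acid list below, was among the 28 that fell.

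Gene lists of liver cell types were then read off, for 24 lists in all, each set against the 60.3% of member sites and 57.6% of all listed sites that were higher. These shares are not matched to the level of a list's sites, and level went with direction above. Hepatocyte markers had 9 of 9 member sites higher, at 7 of the 26 genes. The 3 sites of Ttr, the thyroxine carrier of plasma, lay 7 to 23 bp upstream of the start and averaged 20.8%, 21.7% and 22.4% in LFLS and 33.6%, 34.7% and 35.1% in HFHS, by the authors' deposited table. Apoa1, the main protein of HDL, went from 18.6% to 33.0% and the fibrinogen gene Fgg from 17.8% to 29.8% in the authors' deposited table. Over the 9 sites the LFLS averages ran from 8.93% to 23.8% and the HFHS averages from 15.4% to 35.1%. The rises were thus at sites of low methylation. Of all other listed autosomal sites, 82.2% at mean levels of 10 to 20% and 87.6% at 20 to 30% were higher.

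Lymphocyte markers had 8 of 10 sites lower, at 4 of the 28 genes, and 5 of the 8 were at Ptprc. With 1 site per promoter, 33.3% of 6 sites were higher. Over all listed sites of the lymphocyte marker genes, in these promoters or not, 10 of 24 were higher. Ptprc encodes CD45, the phosphatase on all white blood cells, and its 5 sites averaged 75.1% to 86.2% in LFLS and 62.4% to 77.1% in HFHS, each lower, in the authors' deposited table. The T cell adaptor gene Lat went from 85.3% to 76.9% in the authors' deposited table. Lck, the T cell kinase gene, had a site 666 bp upstream that went from 84.5% to 69.7%, and 2 sites downstream under 10%, one lower (6.66% to 0.758%) and one higher (2.81% to 9.43%), in the authors' deposited table. Prf1, the perforin gene of killer cells, rose from 30.9% to 50% in the authors' deposited table. Falls were thus at the heavily methylated sites of Ptprc, Lat and Lck, but for the 1 Lck site under 10%. Of all other listed autosomal sites, 30.5% at mean levels of 70 to 80% and 32.0% at 80 to 90% were higher.

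Markers of the remaining cell types were few. Tek, the angiopoietin receptor gene of endothelium, was the 1 endothelial marker of 20 with member sites, and its 3 sites averaged 56.4%, 63.0% and 57.3% in LFLS and 38.6%, 45.2% and 38.7% in HFHS, by the authors' deposited table. Spp1, the osteopontin gene and a bile duct marker, had 3 of 3 sites lower, from 51.9%, 83.4% and 52.1% to 34.2%, 72.3% and 34.5% in the authors' deposited table, while Cftr, the chloride channel gene, rose from 79.8% to 91.9%. A site without a symbol, matched by its transcript to Spi1, the PU.1 gene and 1 of 20 macrophage markers, went from 90.5% to 73.9%, and at Tagln, 1 of 15 stellate and fibroblast markers, a site went from 90.2% to 74.4% in the authors' deposited table. Neutrophil and adipocyte markers had 0 member sites. Over all listed sites of these marker genes, in these promoters or not, 26 of 52 endothelial and 8 of 21 bile duct sites were higher. For macrophage and stellate markers 4 of 6 and 9 of 15 were. In bulk liver a changed share of a cell type and a changed methylation within cells cannot be told apart, and the part of cell makeup in any of these differences was not tested.

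**Figure D5:**
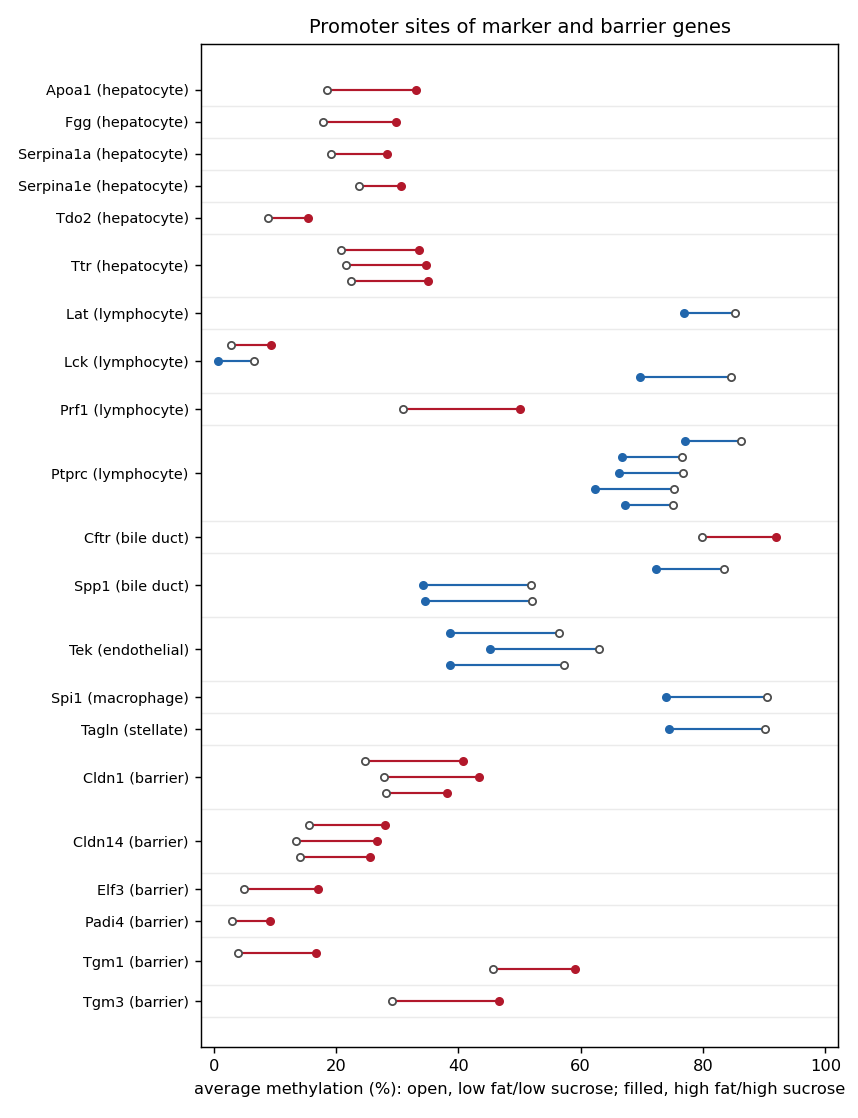
Each line is 1 member site of a cell type marker or barrier gene, but for 1 gene that is not reported, with average methylation in percent on the x axis, open for LFLS and filled for HFHS, red where higher and blue where lower. The 8 hepatocyte marker sites drawn lie below 36% and go right, whereas the sites of Ptprc, Lat, Spp1, Tek, Spi1 and Tagln start above 50% and go left. Among the other markers, the sites of Prf1 and Cftr and 1 Lck site go right, and the remaining Lck sites go left.

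The list of plasma proteins shares genes with the hepatocyte markers. Plasma protein, complement and coagulation genes had 14 of 16 sites higher at 11 genes, 9 of them higher at every site, 1 lower and 1 mixed. In the authors' deposited table the ceruloplasmin gene Cp went from 3.87% to 14.9%, the protein C gene Proc from 7.03% to 22% and the corticosteroid-binding globulin gene Serpina6 from 19.4% to 28.3%. Itih1, an inter-alpha-trypsin inhibitor gene, was lower, from 7.56% to 1.66%, and Vtn, the vitronectin gene, had 2 sites higher and 1 lower (27.2% to 8.42%) in the authors' deposited table.

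Epithelial keratin, claudin and barrier genes had 11 of 11 sites higher, at 6 of the 43 genes of this list with any listed site. The tight junction gene Cldn1 had 3 sites that averaged 24.7%, 27.8% and 28.2% in LFLS and 40.8%, 43.3% and 38.2% in HFHS, by the authors' deposited table. The 3 sites of Cldn14, another claudin gene, averaged 13.5% to 15.6% and 25.6% to 28% in the authors' deposited table. Elf3, an epithelial transcription factor gene, went from 5.03% to 17.1% and Padi4 from 2.93% to 9.17% in the authors' deposited table. At Cldn1 and at Cldn14 the lowest site average in HFHS lay above the highest in LFLS, which says nothing of the spread between mice. Tgm1, a transglutaminase gene of the skin barrier, had sites that began at 45.7% and 3.98% and rose to 59.1% and 16.8% in the authors' deposited table.

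Lists of lipid and sugar metabolism had few member sites, mostly higher. Fatty acid and triglyceride synthesis genes had 4 of 4 higher, the 2 of Scd1 given above, one at Gpam (32.7% to 42.5%), which starts glycerolipid synthesis, and one 33 bp upstream of Thrsp (1.69% to 6.50%), a lipogenic gene, in the authors' deposited table. Glucose metabolism genes had 4 of 4, with Pck1, the gluconeogenic enzyme gene, at 15.7% and 16.3% in LFLS and 31.8% and 30.9% in HFHS, and Slc2a2, the hepatocyte glucose transporter gene, at 19.2% and 34.5% in the authors' deposited table. Slc2a5, the fructose transporter gene, rose from 63.3% to 72.6% in the authors' deposited table. Fatty acid oxidation and ketone genes had 1 of 1, Acox2 (16.5% to 32.4%), and lipoprotein genes 1 of 1, Apoa1, in the authors' deposited table.

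In the remaining metabolic lists directions were split. Lipid uptake, droplet and lipase genes had 2 of 3 higher, with Plin5, a lipid droplet gene, going from 16.0% to 28.2% and Cideb, a lipid droplet and VLDL gene, from 29.8% to 15.8% in the authors' deposited table. Cholesterol and bile acid genes had 3 of 4, with 2 sites higher at the bile salt export pump gene Abcb11 (16.4% to 31.8% and 16.4% to 24.0%) and 1 lower at Pmvk (10.2% to 3.79%) in the authors' deposited table. Amino acid and one-carbon genes had 6 of 10 (60.0%), but 42.9% of the 7 sites with a difference of 10 points or more, with falls at Ido2 (3 of 3 sites) and at Sardh, a sarcosine dehydrogenase gene (49.1% to 28.8%), in the authors' deposited table. Xenobiotic and steroid genes had 1 of 2, with Sult1c2 higher (8.56% to 21.8%) and Sult5a1 lower (84.1% to 77.7%) in the authors' deposited table. Insulin, growth hormone and nutrient signalling genes had 0 member sites, although 89 sites of these genes are listed outside these promoters.

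Regulators and inflammatory genes held sites of both directions, and no test between the lists was run. Liver transcription factors and nuclear receptors had 4 of 5 sites higher, among them Nr0b2 (8.96% to 17.8%), the bile acid-induced repressor SHP, and Nr1h3 (19.4% to 30.6%), the oxysterol receptor gene, with Klf15 the 1 lower, in the authors' deposited table. Cytokine, chemokine and innate genes had 3 of 10 higher (30%), but 60.0% of the 5 sites with a difference of 10 points or more. Tnf, the tumour necrosis factor gene, went from 35.2% to 23.5%, and the inflammasome caspase gene Casp1 from 69.1% and 76.6% to 59.9% and 67.0% in the authors' deposited table. The neutrophil chemokine gene Cxcl1 rose at 2 sites (14.9% to 30.8% and 9.40% to 20.9%) and its neighbour Cxcl2 fell (17.0% to 7.67%) in the authors' deposited table. So the inflammatory genes that fell were not all highly methylated.

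Of the lists outside liver function, matrix, adhesion and protease genes had 6 of 9 higher, with 3 of 3 at Col18a1, whose collagen gives endostatin (8.21%, 16.9% and 17.4% to 22.9%, 31.1% and 32.6%), in the authors' deposited table. Germline and testis genes had 4 of 4 higher, 3 of them at the meiotic cohesin gene Rec8, whose averages ran from 23.5% to 43.1% in LFLS and from 33.3% to 56.1% in HFHS, by the authors' deposited table. Ion channel and neuronal receptor genes had 6 of 9, with 2 of 2 at Chrna9, a nicotinic receptor gene (59.0% to 82.0% and 46.5% to 64.3%), in the authors' deposited table.

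Listed sites elsewhere in the same genes were compared with the promoter direction, a measure the choice of sites did not use. Distances were taken from the stretch between a gene's outermost member sites, and sites inside that stretch were counted as near. In the 456 genes whose promoter sites were all higher, 126 of 184 other sites over 1000 and up to 10000 bp away (68.5%) and 266 of 446 sites further away (59.6%) were higher. In the 297 genes whose promoter sites were all lower, the shares were 58 of 137 (42.3%) and 133 of 327 (40.7%). Other sites of the same levels had 63.1% and 56.9% for the first set and 51.0% and 52.8% for the second. Nearer sites, inside the stretch between outermost members or within 1000 bp of its ends but not members themselves, were few. Of these, 28 of 31 (90.3%) were higher in the first set and 8 of 12 (66.7%) in the second. Some may lie far from any single member, so they are not read as neighbours of a promoter. Beyond 1000 bp each share lay on the promoter's side of its level-matched share, whose pool included the sites compared. The closest pair was 59.6% against 56.9%. No test of these differences was run.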

How the data were processed

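Liver DNA of 13 mice was captured and bisulfite sequenced per the labels' protocols. Per the submitters' processing notes, CASAVA 1.8, Trim Galore, Bismark and methylKit were used with build mm9, and no settings are named. The one table deposited by the authors holds their comparison of the diets: a p-value and q-value, an average percent methylation per diet and a difference in percentage points at each site, already filtered. The test, weighting, coverage minimum and definitions of islands, shores and promoters were not stated there. Depth is unknown, so no interval for a site can be given.

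Members and gene lists were chosen with earlier results of these data known. Sites were selected by flags, and direction, size, level, distance and sites per promoter were counted in pandas 2.3.3. Level-matched shares used all other autosomal sites in classes of 10 points. Functions were tested on simulated data. Genes were matched to RefSeq GRCm38.p6 by transcript (1119 sites), symbol (25) or synonym (7), and 157 sites had none. Promoter sequences are from RefSeq, matched by gene, and no coordinate was moved between builds. Positions of sites are those of mm9. Sequences of 5 further genes that the naming rule takes were not printed, as they have several starts and no measured CpG was found in the stretch before any of them.

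Named genes are the 10 largest rises, the 10 largest falls, the 10 with the most sites, up to 3 per list by smallest p and up to 5 with both directions. Other genes belong to a list's count or were chosen with their values known. One gene of the lists is counted there but not reported by name or value. Near-identical copies may share reads. Alternatives were 1 site per promoter, stricter limits and other position rules.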

Additional observations from a re-analysis of the deposited data

How the results depend on the processing

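The share of member sites that were higher, 60.3%, was 57.7% to 62.4% under 10 of the 11 alternatives run and 64.7% among the 326 sites with q under 0.001. The median rise, 11.5 points, was 10.8 by the difference of averages and 14.0 at q under 0.001, and the median fall, -11.9 points, was -13.1 at q under 0.001, as stricter limits keep larger differences. Promoters with 2 or more sites went 1 way in 83.8% of cases and in 88.8% when sites were joined within 500 bp; the cause was not tested. Lists with more rises than falls numbered 14 of 24, and 13 with 1 site per promoter. Of 42 list results under alternatives, 40 stayed within their counting interval, which is wide at these numbers of sites, and the 2 that did not rest on 2 sites or fewer. Even so, at 10 points or more the majority direction turned for cytokine and innate genes (30% to 60.0% higher, 5 sites) and for amino acid genes (60.0% to 42.9%, 7 sites). It became even for lipid uptake genes at 10 points or more (50%, 2 sites) and, with 1 site per promoter, for bile duct markers (50%, 2 sites) and matrix genes (50%, 6 sites). With averages subtracted instead, the 92 named sites had the same signs and changed in size by at most 1.39 times.

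The comparison of CpG content and its alternatives are not reported, because fewer than 80% of the genes had a promoter sequence. No paired analysis was possible because the table used holds one average per diet. Leaving out mice, other coverage minimums and sites that did not pass could not be run for the same reason. How far coverage limits each average is not known.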

Other observations

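A few member sites reached the ends of the scale. In high fat/high sucrose 15 sites had an average listed as 0, and in low fat/low sucrose 26 did. The promoter of Fis1, a mitochondrial fission gene, held 4 of the former: its sites 236 to 309 bp downstream of the start averaged 5.88%, 5.49%, 4.80% and 6.50% in low fat/low sucrose and were listed at 0 in high fat/high sucrose, by the authors' deposited table. With depth unknown, no upper limit can be put on such a 0. Sites that met the same flags on the names chr20 to chr22, 30 in all, were left out of the counts.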
